A study of Mus musculus with 8 samples.

Results

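The transcripts described here are 9 genes of the red cell lineage, chosen by name: *Alas2*, *Slc4a1*, *Rhag*, *Ermap*, *Epor*, *Gata1*, *Tal1*, *Klf1* and *Hemgn*. They are 9 of the 26590 gene symbols in a deposited table of RNA sequencing of fetal mouse hearts. Hearts of 4 *Dio3*+/+ and 4 *Dio3*-/- fetuses on the C57BL/6J strain were profiled, each heart from an individual mouse, after removal of ribosomal RNA. *Dio3* encodes the type 3 deiodinase, which inactivates thyroid hormones, and the *Dio3*-/- fetuses lack it in every tissue, not in the heart alone. The fetuses received no treatment.

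All 8 sample titles give the age as E13.5, and the age field gives E18.5 for *Dio3*-/- hearts 3 and 4. The methods of the study name an older day than the titles for these hearts. Red cell transcripts are known to shift with fetal age, and the part of age in the differences below was not tested, because the table gives no value for a single heart. It gives, for each transcript row, the authors' mean in each genotype, read as RPKM (mapped reads scaled to transcript length and library size), and the coefficient of variation (CV), which is the SD divided by the mean. Depth per heart is not given by these values. The series is described as male, but *Xist*, which in females coats the silenced X chromosome, averaged 35.6 RPKM (CV 0.99) in *Dio3*+/+ against 40.0 RPKM (0.55) in *Dio3*-/- hearts, and the Y-linked *Eif2s3y* had 9.38 RPKM (1.04) and 7.29 RPKM (1.46). *Alas2* and *Gata1* are X-linked. *Dio3* itself was at 0.35 RPKM (1.23) in *Dio3*+/+ against 0.13 RPKM (0.76) in *Dio3*-/- hearts, too low to be tested, so it did not check the genotype labels.

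In red cell development, the transcription factors GATA1, TAL1 and KLF1 act on shared regulatory DNA to turn on genes for globins, heme synthesis and the red cell membrane, and erythropoietin, acting through its receptor, keeps precursors alive. Early in gestation nucleated red cells from the yolk sac fill the heart and vessels, and later the fetal liver becomes the main site of red cell formation. A fetal heart is therefore expected to carry these transcripts mainly in the blood inside it. *Tal1* and *Epor* are also known from endothelial cells, and *Gata1* and *Tal1* from megakaryocytes.

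RefSeq start sites (GRCm38.p6) were found for 8 of the 9 genes. *Slc4a1* was not matched. The upstream DNA of 4 genes is shown because they span the observed differences, with *Alas2* and *Ermap* among the genes with a lower mean in *Dio3*-/- hearts and *Klf1* and *Hemgn* among those with a higher mean. Each line is the 250 bases before the start, 5′ to 3′ on the strand of the gene, with capitals marking GATAA, the core of GATA sites, and CACCC, the core of the sites bound by KLF1, on either strand.
*Alas2*, chrX:150547167-150547416, plus strand: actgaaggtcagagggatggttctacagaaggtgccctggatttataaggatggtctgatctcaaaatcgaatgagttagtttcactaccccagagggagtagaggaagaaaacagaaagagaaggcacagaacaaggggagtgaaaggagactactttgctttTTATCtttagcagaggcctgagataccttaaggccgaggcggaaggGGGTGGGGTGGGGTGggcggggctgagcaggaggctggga
*Ermap*, chr4:119189996-119190245, minus strand: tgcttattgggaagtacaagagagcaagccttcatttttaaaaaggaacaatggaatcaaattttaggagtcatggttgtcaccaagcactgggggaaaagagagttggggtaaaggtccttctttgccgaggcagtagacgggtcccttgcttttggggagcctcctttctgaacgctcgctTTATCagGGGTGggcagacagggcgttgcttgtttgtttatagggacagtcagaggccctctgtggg
*Klf1*, chr8:84901732-84901981, plus strand: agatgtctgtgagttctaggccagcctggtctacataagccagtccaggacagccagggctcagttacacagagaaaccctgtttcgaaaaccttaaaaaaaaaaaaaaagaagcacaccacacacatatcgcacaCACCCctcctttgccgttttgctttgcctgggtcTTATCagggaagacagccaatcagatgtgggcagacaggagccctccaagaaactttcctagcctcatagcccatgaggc
*Hemgn*, chr4:46404184-46404433, minus strand: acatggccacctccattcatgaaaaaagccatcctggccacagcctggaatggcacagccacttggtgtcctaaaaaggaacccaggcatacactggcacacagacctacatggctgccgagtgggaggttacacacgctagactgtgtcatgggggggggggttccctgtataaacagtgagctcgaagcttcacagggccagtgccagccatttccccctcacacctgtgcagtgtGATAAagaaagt

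A GATAA lay in this window in 7 of the 8 genes, *Gata1* being the exception, and in 22.6% of 32851 RefSeq start sites. CACCC lay in 7 of the 8 genes, not in *Hemgn*, and in 52% of start sites. Both lay in 6 of the 8 genes and in 10.1% of start sites. The E-box letters CANNTG, which TAL1 binds with its partners, lay in 4 of the 8 genes and in 66.2% of start sites. *Tal1* has 2 start sites in RefSeq, and the second window held none of the 3 motifs. The *Alas2* window held CACCC 3 times, in an unbroken run on the minus strand. GATAA and CACCC were present upstream of genes with lower and with higher means, as the 4 sequences show, and these matches describe letters and not binding.

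In *Dio3*+/+ hearts the 9 genes spanned a 127-fold range of levels per transcript length. *Alas2* was highest at 244 RPKM, followed by *Slc4a1* at 187 RPKM, and together they made up 87.6% of the summed level of the 9 genes. *Tal1* followed at 31.4 RPKM, *Ermap* at 14.4 RPKM and *Rhag* at 4.74 RPKM. *Klf1* was at 3.25 RPKM, *Hemgn* at 2.84 RPKM, *Gata1* at 2.33 RPKM and *Epor* at 1.92 RPKM. By these means, 4 genes were above 10 RPKM and 5 genes were below 5 RPKM.

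For 4 hearts, a mean and an SD fix the highest and the lowest heart to between 0.5 and 1.5 SD from the mean. By these bounds the *Dio3*+/+ hearts of *Slc4a1* were all above those of *Tal1*, whereas *Alas2* and *Slc4a1* overlapped, and so did each pair of neighbours among *Klf1*, *Hemgn*, *Gata1* and *Epor*. The other neighbours were not decided by the bounds. In *Dio3*-/- hearts the range was 49.5-fold, *Hemgn* stood above *Rhag* and *Klf1*, and *Epor* above *Gata1*, but these neighbours overlapped.

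**Figure D1:**
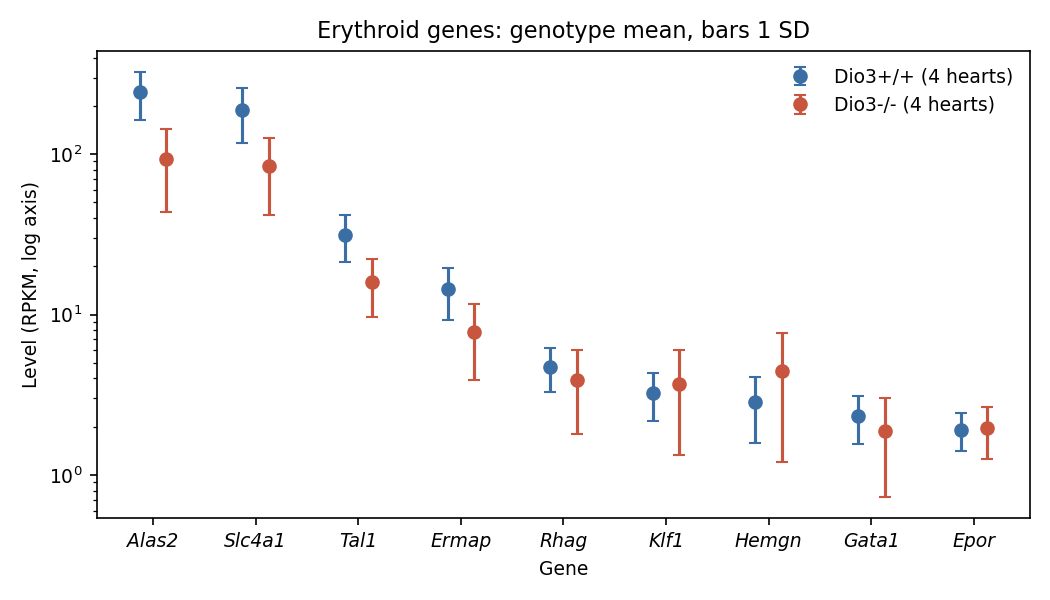
Level of the 9 erythroid genes in RPKM on a log axis, in order of the Dio3+/+ mean. Points are the authors' means of 4 hearts per genotype and bars are 1 SD, from the authors' CV. The 4 genes above 10 RPKM in Dio3+/+ hearts had lower means in Dio3-/- hearts. Between genotypes the bars overlap for Slc4a1, Tal1, Ermap and the 5 genes below 5 RPKM, but not for Alas2. Hemgn was at 2.84 and 4.45 RPKM.

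None of the 9 genes differed between genotypes with an adjusted *P* value under 0.05, where limma was applied to log2(RPKM + 0.5) and adjusted over all 32703 rows with a mean above 1 RPKM in either genotype. Of all rows tested 2.15% passed, and of the 14657 genes tested, each by its row with the highest mean, 2.29% passed, 0.382% with lower and 1.91% with higher means in *Dio3*-/- hearts. All 9 genes passed the filter on low values in both genotypes. With an unadjusted *P* value under 0.05, 4 of the 9 genes had lower means in *Dio3*-/- hearts, as did 4.46% of all tested genes, and 0 of the 9 had higher means, as did 15.2% of all tested genes. In these bulk samples, fewer red cells and less of each transcript per red cell cannot be told apart. By Welch's test calculated from the same summaries, 0 of the 9 genes passed the adjusted threshold. The median log2 fold change was −0.25 over the 9 genes and 0.04 over all tested genes, and it was −1.06 over the 4 genes left with a mean above 5 RPKM.

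The enzyme of the group, *Alas2*, makes the first product of heme synthesis in red cells. Its mean was 244 RPKM in *Dio3*+/+ against 93.1 RPKM in *Dio3*-/- hearts (row uc009uoj.1), with CVs of 0.33 and 0.53. The log2 fold change was −1.39 (standard error 0.36, 95% interval −2.19 to −0.58), a 2.63-fold lower mean, with an adjusted *P* value of 0.076 by limma (unadjusted 0.0034). The highest *Dio3*-/- heart lay between 118 and 167 RPKM and the lowest *Dio3*+/+ heart between 123 and 204 RPKM, so the table does not decide whether the genotypes overlapped. It was the lowest adjusted *P* value of the 9 genes.

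Among the membrane proteins, *Slc4a1* encodes band 3, the anion exchanger that also anchors the membrane to the cytoskeleton. Its mean was 187 RPKM (CV 0.37) in *Dio3*+/+ against 83.8 RPKM (0.50) in *Dio3*-/- hearts (row uc007lrp.2), with log2 fold change −1.15 (standard error 0.36, 95% interval −1.95 to −0.36, limma adjusted *P* = 0.120). The highest *Dio3*-/- heart lay between 105 and 147 RPKM and the lowest *Dio3*+/+ heart between 83.4 and 153 RPKM, again undecided. *Ermap*, which encodes a membrane protein of the immunoglobulin superfamily that carries a blood group antigen, averaged 14.4 RPKM (0.36) and 7.81 RPKM (0.50) in row uc012dke.1. Its log2 fold change was −0.84 (standard error 0.34, 95% interval −1.59 to −0.08, limma adjusted *P* = 0.218). *Rhag*, which encodes the glycoprotein that carries the Rh proteins to the membrane, had closer means of 4.74 RPKM (0.31) and 3.92 RPKM (0.54) in row uc008col.1. Its log2 fold change of −0.25 had a 95% interval of −0.97 to 0.48 (limma adjusted *P* = 0.738), and the hearts of the genotypes overlapped.

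The receptor of the group, *Epor*, binds erythropoietin. Its means were 1.92 RPKM (CV 0.26) in *Dio3*+/+ against 1.96 RPKM (0.36) in *Dio3*-/- hearts (row uc009ond.1). The log2 fold change was 0.02, with a 95% interval of −0.45 to 0.50 (limma adjusted *P* = 0.968), and it was −0.014 after the median log2 ratio over tested rows was subtracted. This interval was the narrowest among the 9 genes. The hearts of the genotypes overlapped.

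Of the 4 nuclear regulators, none passed the adjusted threshold. *Tal1*, a helix-loop-helix factor needed for blood formation, averaged 31.4 RPKM (CV 0.32) in *Dio3*+/+ against 15.9 RPKM (0.39) in *Dio3*-/- hearts (row uc008uem.1). Its log2 fold change was −0.96 (standard error 0.28, 95% interval −1.60 to −0.32, limma adjusted *P* = 0.106). The highest *Dio3*-/- heart lay between 19.0 and 25.2 RPKM and the lowest *Dio3*+/+ heart between 16.3 and 26.4 RPKM. The table does not decide whether the genotypes overlapped.

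*Gata1*, the zinc finger factor that red cell precursors require, averaged 2.33 RPKM (0.33) and 1.88 RPKM (0.61) in row uc009snl.1, with log2 fold change −0.25 (95% interval −0.98 to 0.48, limma adjusted *P* = 0.735). *Klf1*, the Krüppel-like factor that activates the adult β-globin gene, averaged 3.25 RPKM (0.33) in *Dio3*+/+ against 3.68 RPKM (0.64) in *Dio3*-/- hearts (row uc009mnz.2), with log2 fold change 0.16 (95% interval −0.66 to 0.98, limma adjusted *P* = 0.864). *Hemgn*, which encodes hemogen, a nuclear protein of blood precursors, had the highest log2 fold change of the 9 genes, 0.57 (95% interval −0.41 to 1.55, limma adjusted *P* = 0.534). Its means were 2.84 RPKM (0.44) and 4.45 RPKM (0.73) in row uc008str.1. For these 3 genes the hearts of the genotypes overlapped.

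**Figure D2:**
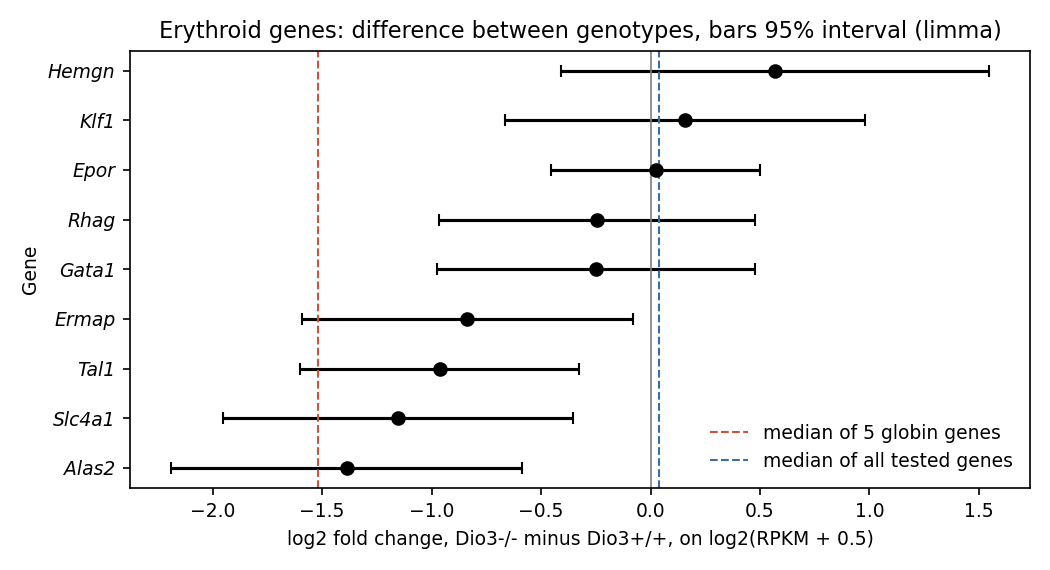
Log2 fold change of the 9 erythroid genes, Dio3-/- minus Dio3+/+, on the log2(RPKM + 0.5) scale, with bars for the 95% interval by limma. Dashed lines mark the median of 5 globin genes (−1.52) and of all tested genes (0.04). The intervals of Ermap, Tal1, Slc4a1 and Alas2 lie below 0 before adjustment, and those of the other 5 genes include 0.

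Over the group, the bounds put the hearts of the genotypes as overlapping for 5 genes and undecided for 4, and separated them for 0 of the 9. Over all tested genes, the hearts could not overlap for 5.49% and had to overlap for 58.1%. The difference in log2 fold change between single genes of the group, such as *Alas2* and *Hemgn*, was not tested, because it needs values paired within hearts.

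Other transcript rows of the same genes kept the direction of the difference, and most had close values. Rows of a gene can share reads, and how far they do was not examined. *Tal1* has 3 rows, at 30.9 to 31.4 RPKM in *Dio3*+/+ and 15.7 to 15.9 RPKM in *Dio3*-/- hearts. *Ermap* has 4 rows, of which the lowest (9.52 and 5.14 RPKM) had a log2 fold change of −0.83. The second *Gata1* row was at 1.61 RPKM in *Dio3*+/+ against 1.10 RPKM in *Dio3*-/- hearts, with log2 fold change −0.40 (limma adjusted *P* = 0.569). The second *Epor* row was at 1.67 and 1.79 RPKM, and its CV in *Dio3*-/- hearts was 0.47, above the 0.36 of the first row.

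The 9 genes varied widely between hearts of the same genotype. Their CV went from 0.26 to 0.44 in *Dio3*+/+ hearts (median 0.33) and from 0.36 to 0.73 in *Dio3*-/- hearts (median 0.53), whereas the medians over all tested genes were 0.09 and 0.06. All 9 genes had the larger CV in *Dio3*-/- hearts, as did 27.3% of all tested genes. In the lists described below, so did all 5 globins, 9 of 11 other red cell genes and 12 of 15 other membrane and skeleton genes. The same held for 8 of 10 megakaryocyte and platelet markers. The lowest CV among the 9 genes, that of *Epor*, was reached by 2.03% of tested genes in *Dio3*-/- hearts, by 8.58% in *Dio3*+/+ hearts and by 1.72% in both. The ratio of the CVs was lowest for *Tal1* (1.22) and highest for *Klf1* (1.94) and *Gata1* (1.85). *Hemgn*, *Klf1* and *Gata1*, with CVs of 0.73, 0.64 and 0.61 in *Dio3*-/- hearts, were above *Alas2* (0.53), *Slc4a1* (0.50), *Ermap* (0.50) and *Tal1* (0.39). Which hearts were high or low is not given by the table, so it cannot be said whether the *Dio3*-/- hearts with the E18.5 age field stood apart.

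**Figure D3:**
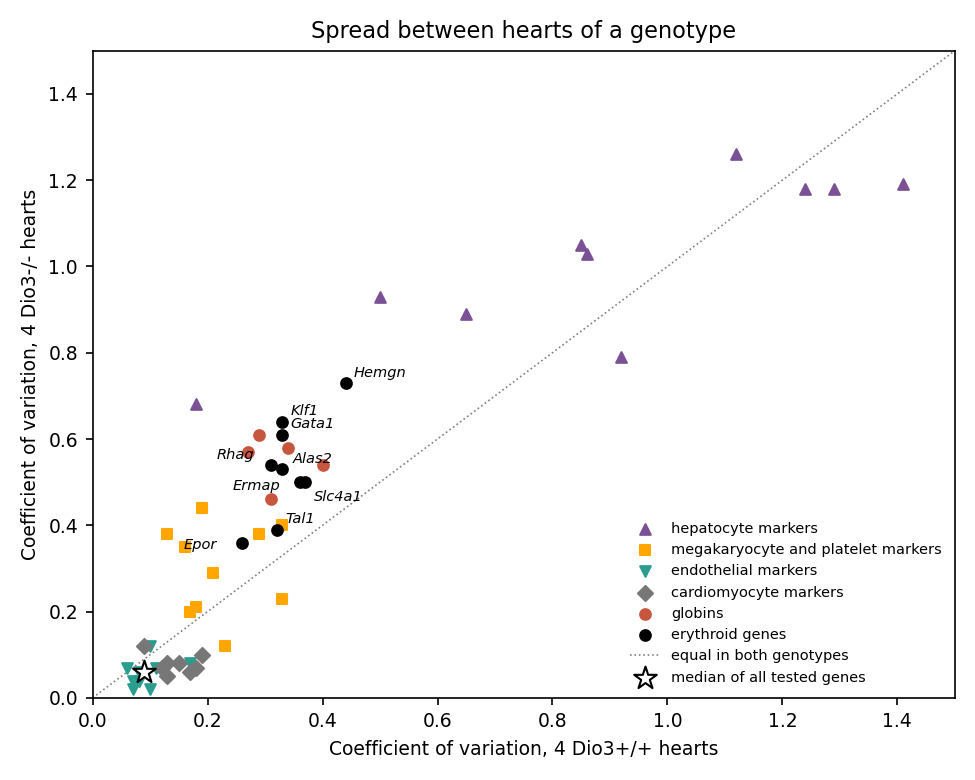
Coefficient of variation among 4 Dio3+/+ hearts (x axis) and among 4 Dio3-/- hearts (y axis), each point a tested gene of a list. The 9 erythroid genes lie above the line of equal spread, beside the globins. They lie far from the cardiomyocyte and endothelial markers and the median of all tested genes (0.09 and 0.06). The megakaryocyte and platelet markers reach 0.33 and 0.44, and the hepatocyte markers reach 1.41 and 1.26.

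Globin transcripts, the most abundant messages of red cells, also had lower means in *Dio3*-/- hearts. All 5 globin genes in the table had log2 fold changes between −1.55 and −1.47, and their summed level was 97395 RPKM in *Dio3*+/+ against 33806 RPKM in *Dio3*-/- hearts, 2.88-fold lower. *Hba-a2* was highest, with means of 50744 RPKM (CV 0.34) and 17707 RPKM (0.58). It has a near-identical copy, so its level is uncertain where reads map to both. *Hbb-bh1*, an embryonic β-like globin, was the globin that passed the test, falling from 318 RPKM (0.31) to 111 RPKM (0.46), with an adjusted *P* value of 0.047 by limma that was between 0.0531 and 0.212 in 5 of the 9 alternatives. *Alas2* at −1.39 and *Slc4a1* at −1.15 were near the globins, and *Klf1* at 0.16 and *Hemgn* at 0.57 were not.

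Other genes of red cells ran from −1.61 to 0.43 in log2 fold change. The lowest was *Slc14a1*, with 2.92 RPKM (CV 1.39) in *Dio3*+/+ against 0.62 RPKM (0.76) in *Dio3*-/- hearts. Of the 11 genes of this list that were tested, 0 passed the adjusted threshold. A lower mean with an unadjusted *P* value under 0.05 by limma was found for 8 of them, against 4.46% of all tested genes. *Prdx2*, a peroxidase abundant in red cells, had the highest mean, with 291 and 224 RPKM. *Bpgm*, which makes the regulator of oxygen affinity in red cells, had 73.0 and 32.9 RPKM, and *Car2*, a carbonic anhydrase, 98.3 and 49.5 RPKM. *Pklr* had a higher mean in *Dio3*-/- hearts, with 1.79 RPKM (CV 0.46) and 2.59 RPKM (0.88), a spread like that of *Hemgn*.

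Among the other genes of the red cell membrane and its skeleton, 15 were tested, 1 passed in the higher direction and 0 in the lower, and the median log2 fold change was −0.56. The gene that passed was *Aqp1*, a water channel also known from endothelium, which rose from 11.7 RPKM (0.03) to 15.3 RPKM (0.05), an adjusted *P* value of 0.0070 by limma. *Epb41*, listed as *Epb4.1* and encoding protein 4.1 of the membrane skeleton, had the highest mean, with 290 RPKM (0.30) in *Dio3*+/+ against 144 RPKM (0.35) in *Dio3*-/- hearts (limma adjusted *P* = 0.081). *Rhd*, the partner of the *Rhag* product, had 7.03 RPKM (0.30) and 4.27 RPKM (0.50).

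In heme synthesis, 11 other genes were tested, of which *Alas1* passed. *Alas1*, the form of the first enzyme used by most tissues, rose from 23.7 RPKM (0.04) to 28.5 RPKM (0.02), with log2 fold change 0.26 (limma adjusted *P* = 0.021). *Fech*, which inserts iron into heme, was the highest gene of the list, with 83.8 RPKM (0.28) and 45.5 RPKM (0.31), with log2 fold change −0.87 (limma adjusted *P* = 0.089). The other 9 genes of the list had log2 fold changes from −0.17 (*Abcb10*) to 0.44 (*Cpox*). Of 4 tested genes of iron uptake, 0 passed, and the median log2 fold change was 0.13, with 3 genes above 0 and 1 below. The 1 below was *Slc25a37*, the mitochondrial iron importer of red cells. It had the highest mean, with 107 RPKM (0.35) and 47.9 RPKM (0.47).

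None of the 16 other transcription factors and partners passed, with a median log2 fold change of −0.06. *Nfe2*, a globin activator, had 10.4 RPKM (0.32) and 5.48 RPKM (0.43). *Ldb1*, a widely used partner of TAL1 and the gene with the highest mean in the list, had 64.1 RPKM (0.07) and 63.8 RPKM (0.03). *Lmo2*, which joins LDB1 to TAL1, had 11.5 RPKM (0.14) and 12.7 RPKM (0.12), and *Lyl1*, the relative of *Tal1*, had 15.9 RPKM (0.22) and 10.4 RPKM (0.15). Of the 10 tested genes of erythropoietin and stem cell factor signalling, 0 passed. Their log2 fold changes ran from −0.73 to 0.19 (median 0.02), with 5 above 0 and 5 below. *Pim1*, the highest of them, had 48.3 RPKM (0.25) and 31.6 RPKM (0.25), and *Bcl2l1*, which keeps red cell precursors alive downstream of the receptor, had 34.0 RPKM (0.21) and 20.3 RPKM (0.30). *Epo* was listed at 0 in *Dio3*+/+ hearts and at 0.01 RPKM in *Dio3*-/- hearts.

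**Figure D4:**
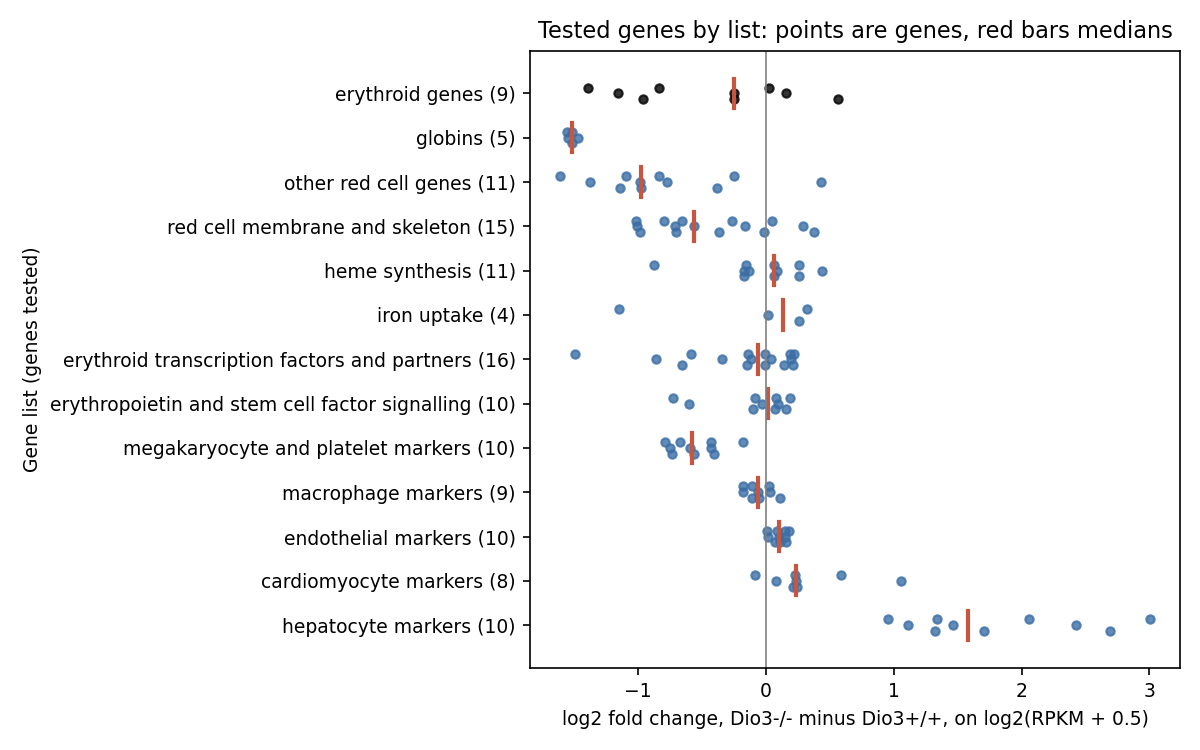
Log2 fold change, Dio3-/- minus Dio3+/+, of every tested gene of the 9 erythroid genes and of 12 other lists, with red bars at the medians. The erythroid genes run from −1.39 to 0.57. The globins (−1.55 to −1.47) and the endothelial markers (0.01 to 0.18) lie closer together. The other red cell genes (−1.61 to 0.43) and the hepatocyte markers (0.95 to 3.01) spread about as widely as the erythroid genes.

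Markers of other cells that use these genes or could carry them were examined beside them. All 10 endothelial markers were tested and 0 passed. Their log2 fold changes were between 0.01 and 0.18, their summed level was 281 RPKM in *Dio3*+/+ against 301 RPKM in *Dio3*-/- hearts, and none was at 0. *Cdh5*, the cadherin of endothelial junctions, was highest, with 72.0 and 76.5 RPKM. All 10 megakaryocyte and platelet markers had lower means in *Dio3*-/- hearts. Of them, 8 had an unadjusted *P* value under 0.05 by limma, as did 4.46% of all tested genes in that direction. None of the markers passed after adjustment. Their summed level was 56.1 RPKM in *Dio3*+/+ against 35.6 RPKM in *Dio3*-/- hearts, with *Pf4*, a chemokine of platelets, highest at 13.1 and 7.66 RPKM. The part of endothelial cells and megakaryocytes in the values of *Gata1*, *Tal1* and *Epor* was not tested.

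Hepatocyte markers had higher means in *Dio3*-/- hearts for all 10 genes. All 10 had an unadjusted *P* value under 0.05 by limma, as did 15.2% of all tested genes in that direction. The markers had adjusted *P* values between 0.121 and 0.242 by limma, and CVs of 0.68 to 1.26 in *Dio3*-/- hearts. Their summed level was 24.1 RPKM in *Dio3*+/+ against 127 RPKM in *Dio3*-/- hearts, and none was at 0. *Afp*, the fetal serum protein, was highest, with 5.11 RPKM (1.24) and 44.6 RPKM (1.18). The fetal liver holds red cell precursors, and the part of such cells in the values of the 9 genes was not tested. The 9 macrophage markers tested had log2 fold changes from −0.18 to 0.11, with 0 passing, a summed level over the list of 51.0 and 49.4 RPKM and *C1qc* highest at 9.45 and 9.62 RPKM. Of 5 mast cell markers, which share *Gata1*, only *Cpa3* was above 1 RPKM, at 1.12 RPKM (0.80) and 0.33 RPKM (0.31), and *Tpsb2* and *Ms4a2* were listed at 0 in *Dio3*+/+ hearts. Cardiomyocyte markers marked the tissue as heart, with *Actc1* highest at 4778 and 5638 RPKM. Of the 8, *Myh6* and *Ryr2* passed, both higher in *Dio3*-/- hearts, with log2 fold changes of 1.06 and 0.59.

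Outside these lists, 14528 genes were compared with the median of the 9 genes in log2 fold change and in the CVs of both genotypes, as a straight-line distance over these 3 values. Among the 10 nearest were *Rsad2*, D330022A01Rik, AK019290, *Mir668*, *Mir467f*, *Snora5c*, *Tspan8*, *Xlr3c* and AK197603, at distances from 0.077 to 0.173. *Rsad2*, the nearest, had 2.17 RPKM (0.35) in *Dio3*+/+ against 1.86 RPKM (0.55) in *Dio3*-/- hearts. The genes named here had means of 1.01 to 2.17 RPKM in *Dio3*+/+ hearts, near the filter of 1 RPKM. The 9 genes had 1.92 to 244 RPKM, so the likeness does not extend to level. Among the 9 genes themselves the distance from that median went from 0.023 for *Rhag* to 1.14 for *Alas2*. The measure rests on 2 genotype summaries of each gene.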

How the data were processed

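Total RNA of 4 *Dio3*+/+ and 4 *Dio3*-/- hearts was depleted of ribosomal RNA and sequenced. The authors' company aligned single-end reads with NovoAlign (version 2.08 in the submitters' processing notes), took only reads with a unique position, and brought samples to the smallest library by a linear factor. The genome build used is not given in the sources used here. The deposited table has 51414 rows, each a UCSC transcript, with the genotype mean, which the authors gave without a unit and which is read as RPKM, the unit of the filter in the methods. The deposited coefficient of variation is a ratio of SD to mean, and its largest value of 2 is the limit for 4 values with n − 1. Columns of the authors' own comparison (a fold change and a *q* value) were not used. The table gives no read total per heart. The study's methods give a range for all samples, which cannot be tied to single hearts, so no counting interval was computed.

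For each row, log2(mean + 0.5) was taken, and its SD was approximated as the RPKM SD over (mean + 0.5) and by the natural log of 2. This is least reliable at large coefficients of variation, as in these genes. The pooled variance (6 residual degrees of freedom, 3.52 prior) was moderated with limma (3.58.1, R 4.3.3) with a mean-variance trend, with Benjamini-Hochberg adjustment over 32703 rows above 1 RPKM in either genotype. The code was tested on simulated data. Welch's test, the study's own, was an alternative. Each gene was taken by its row with the highest mean. Genes named beside the 9 are, in each list, those passing the test and the one with the highest mean, together with the 10 nearest genes. Others were named after their values were seen. Of the genes this rule names, 1 is not reported here. The members and lists were chosen with earlier results of these data known. Of the listed genes, *Hba-a1*, *Hbb-b2*, *Hbb-bs*, *Hbb-bt*, *Tfr2* and *Ahsp* were not analysed here. Python 3.11.15, numpy 2.4.6, pandas 2.3.3 and matplotlib 3.10.9 were used.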

Additional observations from a re-analysis of the deposited data

How the results depend on the processing

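None of the 9 genes passed the adjusted threshold in any of the 9 alternative fits that tested it, and no other row of the genes passed. Of 85 values of log2 fold change under alternatives, 84 kept their direction, and *Epor* turned from 0.02 to −0.014 with centring on the median log2 ratio, a shift of 0.04. The adjusted *P* value of *Alas2* ranged from 0.0584 to 0.237, the highest with Welch's test. The hearts of the genotypes were separated for 0 genes also with each coefficient of variation raised by 0.005. The number of rows passing over the whole table was 703, and 431 without an expression filter, 319 with 1 row per gene, 62 with Welch's test, 394 with centring and 414 with the raised coefficient of variation. Of the 5 genes passing in the other lists, 1 (*Myh6*) passed with Welch's test. With a mean above 5 RPKM, 4 of the 9 genes were left, and the median log2 fold change over them was −1.06 against −0.25 over all 9. The log2 fold change of each of these 4 genes was unchanged, so the median moved with the genes left out. With 1 row per gene, 14657 rows were tested, against 32703 rows in the main fit. The causes of the other shifts were not tested. No paired analysis was possible because the table holds genotype summaries and no single hearts, and for the same reason hearts could not be left out in turn, *Dio3*-/- hearts 3 and 4 included.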
